A study of Mus musculus with 11 samples.

Results

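Carbonic anhydrases were followed in transplanted p53-null mammary lesions through every probe set that the array annotation assigns to Car1, Car2, Car3, Car4, Car6, Car8, Car12 or Car14 alone. These are 8 of 8251 named genes, measured by 9 of 12422 probe sets, since Car4 has 2 and every other gene 1. The genes were picked with the difference between the 2 lesion lines already known for Car12, so their values in that comparison are given as a description, with no p-value, and the count of members that passed the call rule is printed only beside the share of all probe sets that did. Car5a, the 1 other carbonic anhydrase gene on the array, was not described.

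Mammary glands carrying PN1a lesions (5 samples) were compared with glands carrying PN1b lesions (6 samples), all taken 8 weeks after transplantation, to find genes that differ between premalignant lesions of high (PN1a) and low (PN1b) tumor-forming potential. Both lines come from Trp53-/- Balb/c mammary epithelium, were started from outgrowths in the opposite glands of the same mouse, and are each a single line kept by serial transplantation into cleared fat pads of wild-type Balb/c females, 3 weeks old at transplantation. The loss of p53 is therefore shared by both groups, the stroma, vessels and blood cells of the host carry p53, and a difference between the groups is one between 2 lines. Whole glands were lysed, so fewer cells of a type and less RNA per cell cannot be told apart.

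Carbonic anhydrases are enzymes, most of them dependent on zinc, that interconvert carbon dioxide and water with bicarbonate and a proton, and so set the pH inside and around cells. Car1, Car2 and Car3 are cytosolic, Car4, Car12 and Car14 sit in the plasma membrane with the active site outside, Car6 is secreted, and Car8 lacks the catalytic activity. In human breast, CA12 is known as a gene of estrogen receptor-positive cells and CA9 and CA12 as genes of hypoxic tumors; in mouse, Car3 is known for adipocytes and skeletal muscle, Car1 and Car2 for red blood cells, and Car6 for the salivary gland.

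The promoter of Car12, the member with the largest difference between the lines, is shown with that of Car14, another membrane-bound member, whose values overlapped between the lines. Each is the 250 bases before the start that RefSeq annotates on build GRCm38.p6, at chr9:66713436-66713685 on the plus strand for Car12 and chr3:95904686-95904935 on the minus strand for Car14. Capitals mark matches to 5 motifs searched on both strands, which were ACGTG (the core of the hypoxia response element), GGTCA (the arm of an estrogen response element), the palindromic estrogen response element (that arm, 3 free bases and its reverse complement, so that each match to it also matches the arm), GGGCGG (a GC box) and TATAAA.
Car12: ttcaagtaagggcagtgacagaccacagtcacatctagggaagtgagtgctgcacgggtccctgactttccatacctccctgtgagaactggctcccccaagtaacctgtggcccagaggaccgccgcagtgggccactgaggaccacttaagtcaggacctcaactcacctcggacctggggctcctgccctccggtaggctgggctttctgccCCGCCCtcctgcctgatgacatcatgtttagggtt
Car14: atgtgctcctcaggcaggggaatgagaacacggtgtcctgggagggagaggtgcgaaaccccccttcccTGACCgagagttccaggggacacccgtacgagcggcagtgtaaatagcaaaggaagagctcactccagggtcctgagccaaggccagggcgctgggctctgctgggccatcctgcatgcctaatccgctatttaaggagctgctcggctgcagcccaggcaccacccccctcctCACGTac
The Car12 sequence held 1 match, a GC box read on the minus strand 35 to 30 bases before the start, and none to the other motifs. The Car14 sequence held ACGTG on its other strand 7 to 3 bases before the start and GGTCA on its other strand 181 to 177 bases before it. Of 4 members with an entry in the promoter table, Car6 held 2 overlapping matches to ACGTG and a GC box, and Car4 held 1 GGTCA. Over 32851 annotated promoters of the same length, ACGTG was found in 16.6%, GGTCA in 35.2%, the palindrome in 0.0639%, GGGCGG in 32.7% and TATAAA in 12.4%, so each match is of a common kind and describes letters only.

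Each sample was hybridized to its own Affymetrix MG_U74Av2 array, and the deposited value of a probe set is a linear intensity. The median intensity of a sample lay between 8.57 and 8.94 in PN1a, against 8.88 and 9.51 in PN1b, and precision is limited by how many arrays there are. The sample titles end in 1 of 3 different numbers, whose meaning is not given. All 5 PN1a samples and PN1b 5 and 6 share 1 ending, while PN1b 1, 2, 3 and 4 carry the other endings and have titles written as a range of numbers, which could mark pooled glands but is not explained. In PN1b the form of the title (range or single) and its ending coincide and cannot be told apart. In PN1a, PN1a 1 and 2 are titled by a number alone and PN1a 3, 4 and 5 by the name of the line and a letter, and the number-titled samples had the lowest luminal keratin values (Krt18 intensities of 73.0 and 211, against 452, 592 and 653). Whether samples came from separate mice is not stated, so the p-values reflect only how these samples vary.

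**Figure D1:**
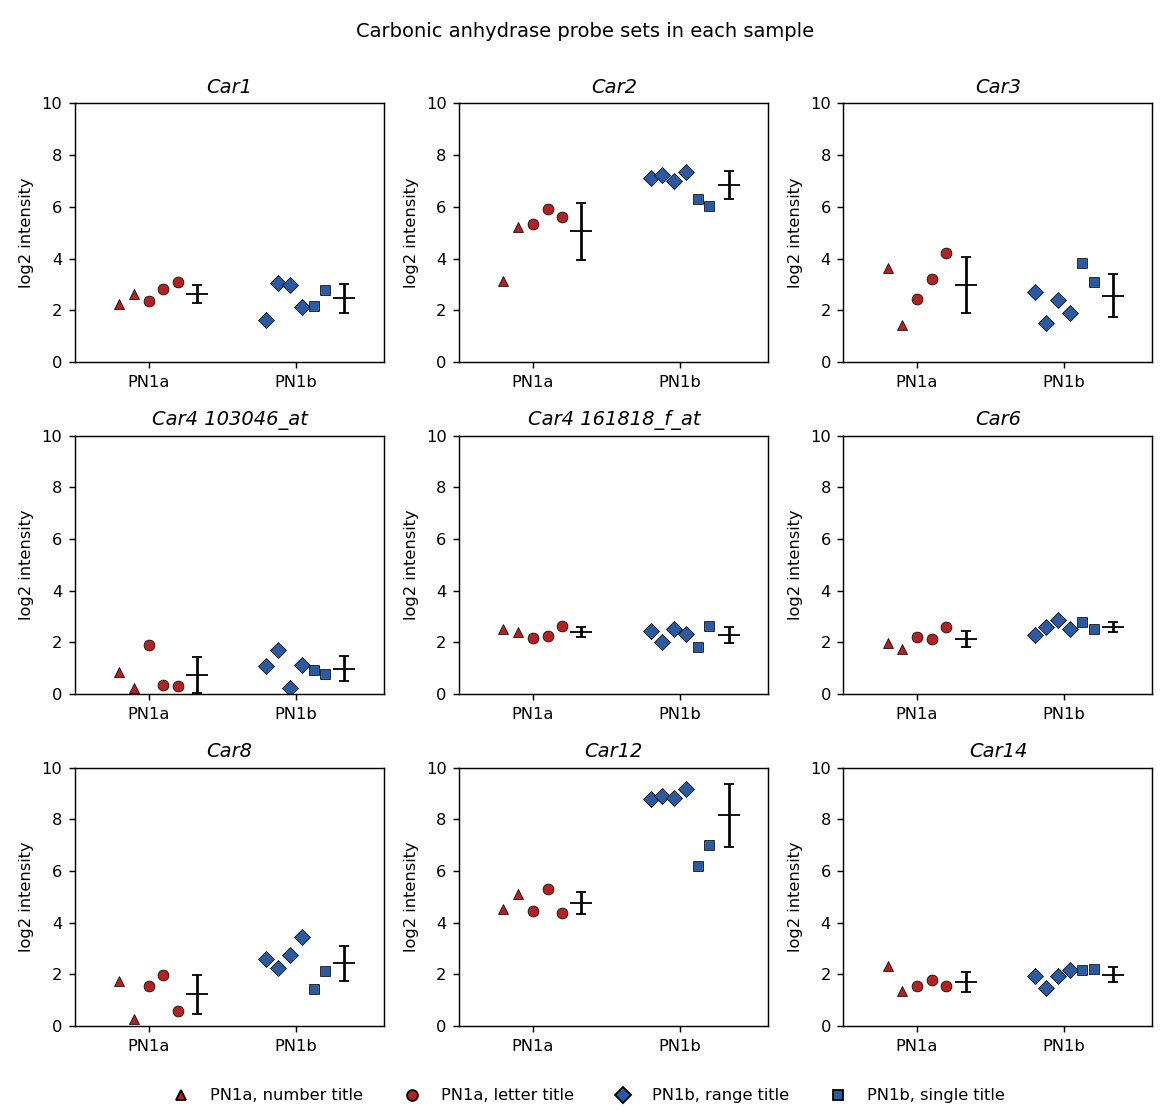
Log2 intensity of the 9 carbonic anhydrase probe sets (vertical axes, the same scale in each panel) in PN1a (left, red) and PN1b (right, blue); symbols show the form of the sample title, and bars beside the points show the mean and SD (n = 5 and 6). Car12 and Car2 are the panels in which all PN1a samples lie below all PN1b samples, and in both the single-titled PN1b samples lie below the range-titled ones.

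Car12, a membrane-bound carbonic anhydrase that works on the outer face of epithelial cells, had intensities of 23.1, 35.0, 22.2, 39.9 and 20.7 in PN1a 1 to 5. In PN1b 1 to 6 it had intensities of 443, 484, 455, 572, 74 and 130. All PN1a samples lay below all PN1b samples, and the PN1b samples themselves fell into 4 high and 2 much lower ones. Mean log2 intensity was 4.76 ± 0.43 in PN1a and 8.16 ± 1.23 in PN1b (SD, n = 5 and 6), a log2 difference of -3.39 with an SE of 0.50 from limma, or 10.5-fold lower in PN1a.

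The size of the Car12 difference turned on which PN1b samples were used. Among the 7 samples that share a title ending it was -1.85 (SE 0.37), or 3.61-fold lower in PN1a. Without PN1b 5 and 6 it was -4.16 (SE 0.24), or 17.9-fold lower in PN1a. The highest PN1a sample, at 39.9, was below the lowest PN1b sample, at 74, so both versions put every PN1a sample under every PN1b sample.

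Car2, the cytosolic enzyme of high turnover found in red cells, kidney and many epithelia, had intensities of 8.69, 37.5, 40.5, 60.5 and 49.2 in PN1a 1 to 5. In PN1b 1 to 6 its intensities were 137, 149, 129, 162, 78.2 and 65.8. Again no PN1a sample reached the lowest PN1b sample, and the range-titled PN1b samples were again above PN1b 5 and 6. The mean log2 intensity was 5.05 ± 1.11 in PN1a and 6.83 ± 0.54 in PN1b, a log2 difference of -1.79 (SE 0.44), or 3.45-fold lower in PN1a. PN1a 1 was the lowest sample by far, and without PN1a 1 and 2 the difference was -1.21 (SE 0.31). Among samples of the shared title ending it was -1.12 (SE 0.67).

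Car8, a relative without catalytic activity that is known for its binding to the inositol trisphosphate receptor in Purkinje cells, was dim throughout. Its intensities were 3.32, 1.21, 2.93, 3.92 and 1.52 in PN1a, against 6.06, 4.79, 6.77, 10.9, 2.69 and 4.35 in PN1b. The groups overlapped, because PN1b 5 lay below 3 of the 5 PN1a samples. The log2 difference was -1.21 (SE 0.38), and -0.55 (SE 0.49) among samples of the shared title ending.

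The other 2 membrane-bound members, Car4 and Car14, were dim and overlapped between the lines. Car4, anchored by a lipid and known for lung and kidney capillaries and tubules, ran from 1.17 to 3.71 in PN1a and from 1.17 to 3.27 in PN1b with 1 probe set (suffix _at). With the other (suffix _f_at, by which the array maker marks probes that match several related sequences) it ran from 4.50 to 6.19 in PN1a and from 3.51 to 6.15 in PN1b. The 2 Car4 probe sets gave log2 differences of -0.25 (SE 0.32) and 0.11 (SE 0.19), which differ in sign. Car14, known for kidney, retina and liver, ran from 2.57 to 4.99 in PN1a and from 2.81 to 4.66 in PN1b, a log2 difference of -0.29 (SE 0.21).

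Of the remaining cytosolic members, Car1 ran from 4.72 to 8.46 in PN1a and from 3.07 to 8.22 in PN1b, a log2 difference of 0.17 (SE 0.28). Car3, which is abundant in fat cells and slow muscle, ran from 2.71 to 18.5 in PN1a and from 2.83 to 14.1 in PN1b, a log2 difference of 0.42 (SE 0.49). Its sign depended on the samples, at -0.48 (SE 0.67) among samples of the shared title ending and 0.87 (SE 0.50) without PN1b 5 and 6. Secreted Car6, known from saliva and milk, ran from 3.36 to 6.06 in PN1a and from 4.82 to 7.31 in PN1b, a log2 difference of -0.46 (SE 0.19). None of the member values equalled the smallest deposited value.

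Over the 9 probe sets the median log2 difference was -0.29, against -0.01 over all tested probe sets, and 6 of the 9 were below 0. A call needed a fold of at least 1.5 and, in limma, an adjusted p (Benjamini-Hochberg) below 0.05. By that rule 1 of the 9 was called (Car12, lower in PN1a), beside 2.49% of all probe sets called in either direction and 1.62% called lower. Groups that did not overlap, with PN1a lower, were found for 2 of the 9 probe sets (Car12 and Car2), beside 2.38% of all probe sets, and 0 of the 9 had PN1a higher without overlap, beside 1.58%. The members were chosen on this comparison, so nothing is read from these counts.

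**Figure D2:**
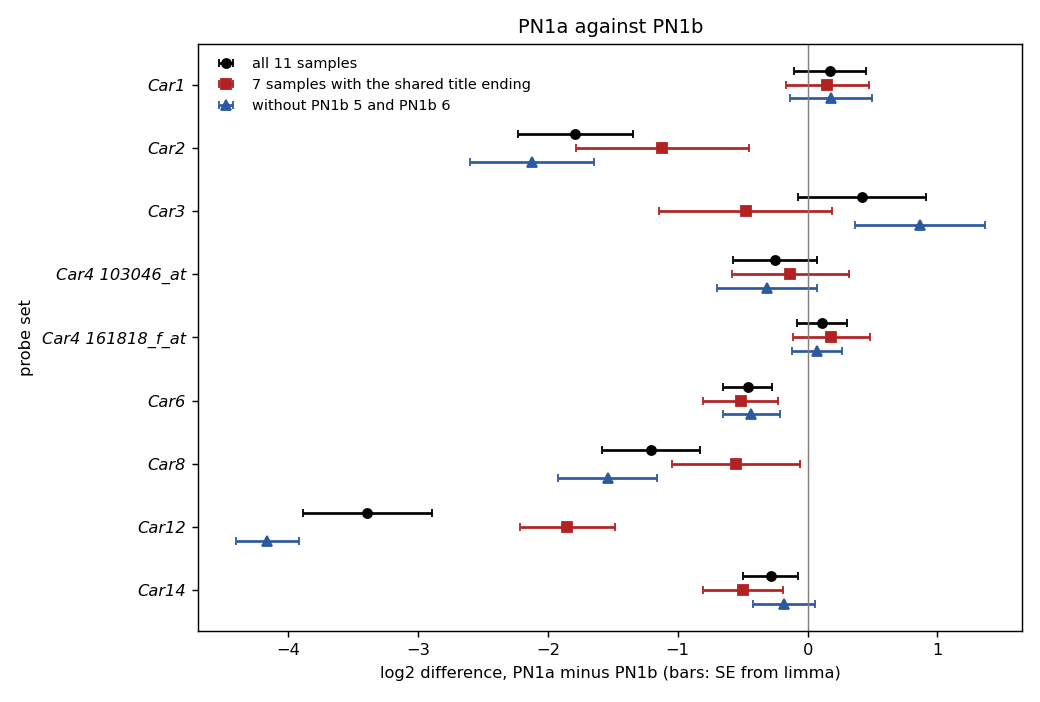
Log2 difference, PN1a minus PN1b, of each carbonic anhydrase probe set (horizontal axis), with the SE from limma as bars; circles use all 11 samples, squares the 7 samples with the same title ending, and triangles leave out PN1b 5 and 6. Car12 is farthest below 0 in each version but ranges from -4.16 to -1.85, and Car3 changes sign.

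Differences within PN1b were tested in a contrast that does not use the PN1a means. It is not independent of the choice of genes, since it was set up with the spread of Car12 among PN1b samples known. The same PN1b samples also enter the difference between the lines. Its p-values are therefore only a description. A limma fit with 4 means (PN1a by number or letter title, PN1b by range or single title) compared the 4 range-titled PN1b samples with the 2 single-titled ones. Car12 averaged 8.93 ± 0.17 (log2, SD, n = 4) in range-titled samples and 6.62 ± 0.57 (n = 2) in single-titled samples, a log2 difference of 2.31 (SE 0.33) or 4.96-fold higher. The adjusted p of this limma contrast was 0.0109, and 0.869% of all probe sets were called in it in either direction, 0.572% as higher and 0.298% as lower. Without PN1b 5 the Car12 difference was 1.91 and the adjusted p of limma 0.100, so the call rested on that sample.

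None of the other members was called in this contrast. Car2 had a log2 difference of 1.0 (SE 0.45, limma adjusted p = 0.311) and Car8 of 0.99 (SE 0.48, limma adjusted p = 0.358), and for both every range-titled sample lay above both single-titled ones. For Car3 every range-titled sample lay below both single-titled ones (log2 difference -1.34, SE 0.61, limma adjusted p = 0.325), as it did for Car14 (-0.32, SE 0.29, limma adjusted p = 0.656). With 4 samples against 2, groups did not overlap in the higher direction for 14.8% of all probe sets and in the lower direction for 11.7%. Car1, Car6 and both Car4 probe sets had differences between -0.08 and 0.18, with limma adjusted p from 0.892 to 0.983. The median over the 9 probe sets was 0.11, against 0.04 over all.

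**Figure D3:**
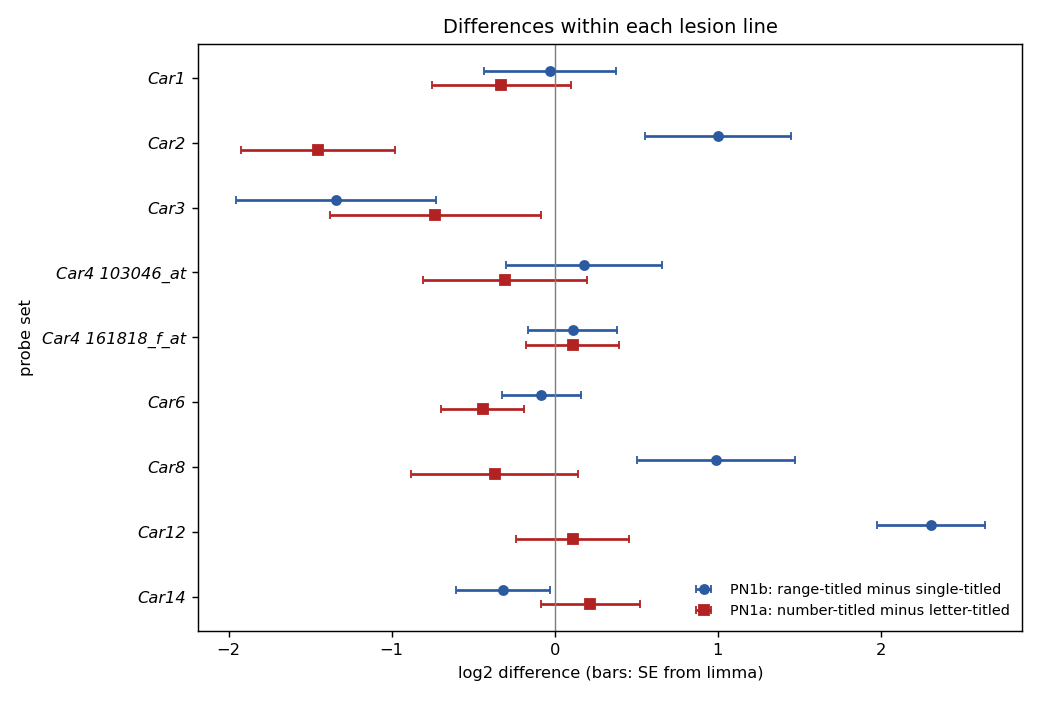
Log2 differences within each lesion line for the 9 carbonic anhydrase probe sets (horizontal axis), with the SE from limma as bars; circles are range-titled minus single-titled PN1b samples (4 against 2), squares number-titled minus letter-titled PN1a samples (2 against 3). Car12 stands at 2.31 in PN1b and 0.11 in PN1a, and Car2 at 1.0 in PN1b and -1.45 in PN1a.

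Within PN1a the order was another one. Car12 overlapped between number-titled and letter-titled samples (log2 difference 0.11, SE 0.35, limma adjusted p = 0.895), whereas both number-titled samples lay below all letter-titled ones for Car2 (-1.45, SE 0.47, limma adjusted p = 0.0896). They did so for Car6 too (-0.44, SE 0.25, limma adjusted p = 0.338), beside 19.1% of all probe sets with such a separation, and no member was higher in both, beside 20.1%. By the rule of adjusted p and fold 0 of the 9 probe sets were called in limma, and 1 (Car2) had an unadjusted p under 0.05 (0.0101), beside 22.9% of all probe sets at that p and 7.31% called (1.98% higher and 5.33% lower). The limma fit with a trend and robust variances also called 0.

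The members were also set beside luminal epithelial RNA. Krt18, a keratin of luminal cells, had intensities of 73.0, 211, 452, 592 and 653 in PN1a 1 to 5 and of 879, 781, 861, 936, 771 and 639 in PN1b 1 to 6. Car2 was lowest (8.69) in PN1a 1, the sample with the least Krt18, and 49.2 in PN1a 5. Car12 was 23.1 in PN1a 1 and 20.7 in PN1a 5, with Krt18 at 73.0 and 653 in them. PN1a 5 and PN1b 6, a pair picked after the values were seen, had nearly equal Krt18 values (653 and 639). Car12 was 20.7 in PN1a 5 and 130 in PN1b 6. With the mean log2 intensity of 10 luminal genes as a covariate, an alternative chosen after the data were seen, the difference between the lines was -3.31 for Car12 and -1.53 (SE 0.23) for Car2. The luminal genes did not move as one. Krt18 had a log2 difference of -1.40 (limma adjusted p = 0.124), while the genes of the list with the smallest p were in the other direction, Muc1, an apical mucin, at 1.41 (limma adjusted p = 0.0736) and Krt19, another keratin, at 2.63 (limma adjusted p = 0.0808; 23.4 to 440 in PN1a, against 9.99 to 54.2 in PN1b). The whole luminal list summed to intensities of 297 to 2100 in PN1a, against 1376 to 2275 in PN1b, and 0 of its 10 genes were called in limma (2 higher and 2 lower at an unadjusted p under 0.05, and 0 by the methods' t-test after adjustment). Over all 8251 genes, limma called 0.836% higher and 1.84% lower in PN1a. At an unadjusted p under 0.05, 7.68% were higher and 12.7% lower, and the methods' t-test called 1.28% after adjustment. These shares are the background for every such count of a list between the lines. The luminal list's part in the Car12 and Car2 differences was not tested beyond this covariate.

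**Figure D4:**
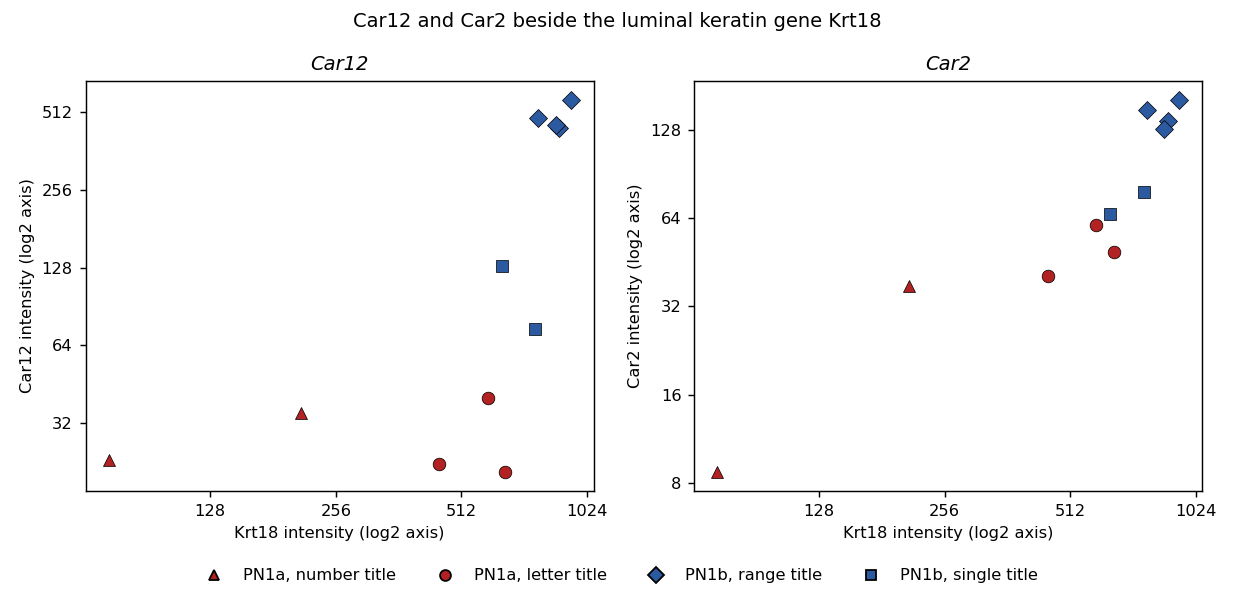
Car12 (left) and Car2 (right) intensity against Krt18 intensity in each of the 11 samples, on log2 axes; red symbols are PN1a and blue symbols PN1b samples, by form of title. Car12 stays between 20.7 and 39.9 in PN1a while Krt18 runs from 73.0 to 653, and the lowest Car2 value (8.69) is in the sample with the lowest Krt18.

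Markers of other cells that carry carbonic anhydrases moved in different ways. Hba-a1, an alpha-globin of red cells, had intensities of 755, 781, 526, 680 and 714 in PN1a and of 193, 278, 144, 100.4, 1010 and 367 in PN1b. Globin was thus lowest in the range-titled PN1b samples, where Car2 was highest, and the 5 measured red cell genes summed to 541 to 800 in PN1a and 119 to 1029 in PN1b, with 0 called in limma (1 higher at an unadjusted p under 0.05). The 7 measured adipocyte genes summed to 51.1 to 163 in PN1a, against 197 to 269 in PN1b, and 1 was called lower, beside 1.84% of all genes. That was Lpl, the lipase that releases fatty acids for fat cells (log2 difference -1.81, limma adjusted p = 0.0415, a call ended by leaving out any 1 of PN1a 1, 2 and 3 and PN1b 1, 2, 3, 4 and 6). Lpl carried the gap in the sum, with 20.4 to 118 in PN1a, against 170.1 to 229 in PN1b, whereas the mean log2 intensity of the list overlapped (2.08 to 3.40 in PN1a, against 2.67 to 3.21 in PN1b) and its median log2 difference was -0.16. Adipoq, a defining adipocyte gene, ran from 2.87 to 13.4 in PN1a and from 4.69 to 10.8 in PN1b. Muscle genes (8 measured) summed to 38.0 to 42.9 in PN1a, against 27.4 to 47.1 in PN1b, and salivary gland genes (5 measured) to 21.8 to 29.3 in PN1a and 22.2 to 34.2 in PN1b, with 0 called in either by limma (1 muscle gene higher and 1 salivary gene lower at an unadjusted p under 0.05). Endothelial genes, of the cells in which Car4 is known, had 0 of 9 called in limma (1 lower at an unadjusted p under 0.05) and summed to 123 to 392 in PN1a and 259 to 408 in PN1b. The part of these cells in the Car2, Car3 and Car4 values was not tested.

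The 9 macrophage genes had 2 called higher in PN1a (Cd68 and C1qb, a complement subunit) and 0 lower, beside 0.836% and 1.84% of all genes. Their median log2 difference was 1.23, with 0 of the 9 below 0, and they summed to 217 to 1227 in PN1a, against 73.5 to 223 in PN1b. At an unadjusted p under 0.05 in limma, 7 of the 9 were higher and 0 lower, beside 7.68% and 12.7% of all genes, and the methods' t-test called 0 after adjustment. Leaving out any 1 sample other than PN1a 2 and PN1b 2 and 5 ended the Cd68 call (limma adjusted p up to 0.106), and any 1 other than PN1a 5 and PN1b 5 the C1qb call (up to 0.0961). Of 7 basal epithelial genes 1 was called lower (Trp63, the p63 factor of basal cells, at -1.55, limma adjusted p = 0.0262, a call ended by leaving out PN1a 4 or PN1b 1, 3 or 4), and of 7 milk protein genes 1 was called lower (Glycam1, at -4.16, limma adjusted p = 0.0109), beside 1.84% of all genes. Within the shared title ending none of these 4 genes was called (limma adjusted p = 0.634 for Cd68, 0.668 for C1qb, 0.676 for Trp63 and 0.632 for Glycam1). There the log2 differences were 0.97 for Cd68, 1.98 for C1qb, -1.24 for Trp63 and -3.59 for Glycam1. That set holds only 2 PN1b samples, and Car12 was not called in it either, so a lost call does not show a lost difference. Glycam1 did not stand for the milk protein list, in which 2 of the 7 genes were below 0 and the median log2 difference was 0.45. At an unadjusted p under 0.05 in limma, 2 milk protein genes were higher and 1 lower in PN1a. Between the lines 1 basal gene was higher and 4 lower at an unadjusted p under 0.05 in limma. Basal genes summed to 515 to 1237 in PN1a, against 1674 to 1817 in range-titled and 994 to 1005 in single-titled PN1b samples, so the range-titled samples were highest for this sum as for Car12. Acta2 carried most of the sum, with 969 to 1097 in range-titled and 622 to 690 in single-titled samples. The mean log2 intensity of the list was 5.92 to 6.22 in range-titled samples, against 5.18 and 5.51 in single-titled ones. The part of these cells in the Car12 values was not tested.

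The family was also set beside other genes that move acid and bicarbonate, 33 of 51 listed genes being measured on the array. Of them 0 were called higher and 2 lower in PN1a, beside 0.836% and 1.84% of 8251 genes, and the median log2 difference was -0.10 against -0.03 over all genes. Slc4a4, the sodium bicarbonate cotransporter, had intensities from 1.53 to 3.73 in PN1a and from 4.08 to 9.85 in PN1b (log2 difference -1.24, SE 0.29, limma adjusted p = 0.0392). Slc4a4 was dim, with every PN1a value below the lowest sample median of 8.57, which limits what its difference can show. Atp6v1h, a subunit of the vacuolar proton pump, ran from 20.4 to 38.1 in PN1a and from 41.1 to 75.1 in PN1b (-1.0, SE 0.22, limma adjusted p = 0.0310). Neither gene overlapped between the lines. Both calls were marginal, since leaving out 1 sample raised the limma adjusted p to as much as 0.0951 for Slc4a4 (a call ended by any 1 of PN1a 1 to 4 and PN1b 1 to 4) and 0.0819 for Atp6v1h (any 1 of PN1a 1 to 3 and PN1b 1 to 4). Among the 7 samples of the shared title ending the differences were -0.66 for Slc4a4 and -0.66 for Atp6v1h, and neither was called (limma adjusted p = 0.688 and 0.677). That set holds only 2 PN1b samples, so a lost call there does not show a lost difference. At an unadjusted p under 0.05, 2 of the 33 were higher and 5 lower, beside 7.68% and 12.7% of all genes, and the methods' t-test called 0 after adjustment.

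The pump subunits were also compared within PN1b. The 15 measured subunits summed to intensities of 812 to 964 in PN1a, while in PN1b they summed to 1169 to 1303 in range-titled samples and 760 to 813 in single-titled ones. The median log2 difference between range-titled and single-titled samples was 0.57 over the subunits, against 0.06 over all genes, and 1 of the 15 was called higher, beside 0.667% of all genes. That was Atp6v1e1, with 231 to 274 in range-titled and 82.7 to 115 in single-titled samples (1.35, SE 0.25, limma adjusted p = 0.0369), and leaving out any 1 PN1b sample or PN1a 3 ended this call. At an unadjusted p under 0.05 in limma, 7 of the 15 were higher and 0 lower, beside 9.84% and 6.06% of all genes. The 2 subunits below 0 were Atp6v1b2 (-0.07) and Atp6v1c1 (-0.16), and Atp6v0e was at 0.06. The 18 measured acid and bicarbonate transporters had a median of -0.02 and 0 called in limma (3 higher and 2 lower at an unadjusted p under 0.05, beside 9.84% and 6.06% of all genes).

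Within PN1a, 3 of the 33 genes of acid and bicarbonate handling were called between number-titled and letter-titled samples. Of these, 1 was higher and 2 lower, beside 2.15% of all genes called higher and 6.45% called lower. Both counts were near the shares of all genes, so nothing is read from them about this list. Slc26a2, a sulfate transporter, was higher (12.9 and 14.7 in number-titled samples, against 2.50 to 5.86 in letter-titled ones, log2 difference 1.93, limma adjusted p = 0.00712). Aqp1, a water channel of red cells and vessels, was lower (-2.11, limma adjusted p = 0.0219), as was Atp6ap2, an accessory pump subunit (-1.36, limma adjusted p = 0.0205). Leaving out PN1a 2, 3 or 4 ended the Aqp1 call and leaving out PN1a 2 or 4 the Atp6ap2 call.

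Genes of the hypoxia response, a setting in which human CA9 and CA12 are known to be induced, were read in the same way. Of 23 measured genes 0 were called higher and 1 lower in PN1a, beside 0.836% and 1.84% of all genes, with a median log2 difference of -0.28. Pfkp, a phosphofructokinase of glycolysis, ran from 11 to 33.1 in PN1a and from 45.3 to 115 in PN1b (-1.84, SE 0.31, limma adjusted p = 0.00738). It kept its call with each sample left out in turn. Within the shared title ending, with only 2 PN1b samples, it was not called (-1.27, limma adjusted p = 0.600). At an unadjusted p under 0.05, 1 gene was higher and 8 of the 23 were lower, beside 7.68% and 12.7% of all genes, and the methods' t-test called 1 after adjustment, beside 1.28%. The summed intensity of the list was 2212 to 2715 in PN1a, against 2288 to 4278 in PN1b, and the high end came from the range-titled samples (4152 to 4278, against 2288 and 2592 in the single-titled ones). For this sum the single-titled PN1b samples lay within the range of PN1a, and their Car12 values were 74 and 130. The part of the hypoxia response in the Car12 values was not tested.

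In the contrast within PN1b, 2 of 23 hypoxia genes were called higher in range-titled samples and 0 lower, beside 0.667% and 0.291% of all genes. The list did not move as one, since 9 of the 23 were below 0 and the median log2 difference was 0.245, against 0.06 over all genes. At an unadjusted p under 0.05 in limma, 9 were higher and 2 lower, beside 9.84% and 6.06% of all genes. Slc2a1, the glucose transporter GLUT1, had 478 to 568 in range-titled samples and 108 to 172 in single-titled ones (1.97, SE 0.25, limma adjusted p = 0.00677, 0.0559 without PN1b 6). Pfkl, the liver-type phosphofructokinase, had 151 to 300.2 in range-titled and 36.8 to 52.0 in single-titled samples (2.24, SE 0.40, limma adjusted p = 0.0308), a call ended by leaving out any 1 PN1b sample or PN1a 3. Hif1a, the hypoxia-inducible transcription factor subunit, had 241 to 352 in range-titled and 133 to 155 in single-titled samples, and was not called (1.04, limma adjusted p = 0.212).

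Hormone receptor and estrogen response genes, a setting in which human CA12 is known, gave 1 called higher and 0 called lower of 16 in limma. All genes were called at 0.836% higher and 1.84% lower. At an unadjusted p under 0.05 in limma, 2 of the 16 were higher and 0 lower, and the methods' t-test called 0 after adjustment. The median log2 difference was 0.08. Esr1, the estrogen receptor, ran from 3.41 to 5.90 in PN1a and from 4.06 to 7.84 in PN1b (-0.19, limma adjusted p = 0.683), and Pgr, the progesterone receptor, from 1.78 to 3.29 in PN1a and from 1.41 to 3.27 in PN1b (0.27, limma adjusted p = 0.606). Both were dim, below the lowest sample median of 8.57, which limits what their differences can show. Cited1, a transcriptional coactivator linked to estrogen receptor in mouse mammary gland, ran from 5.82 to 26.7 in PN1a and from 2.08 to 5.94 in PN1b (1.88, SE 0.40, limma adjusted p = 0.0282). Leaving out PN1a 3 or 4 or any 1 of PN1b 1 to 4 ended the Cited1 call, with adjusted p up to 0.0746. Between range-titled and single-titled PN1b samples, 1 of the 16 was called higher and 0 lower, beside 0.667% and 0.291% of all genes. In that contrast 10 of the 16 were below 0 and the median log2 difference was -0.10. The called gene was Wnt4, a target of progesterone (2.04, limma adjusted p = 0.0369), at intensities from 1.09 to 9.19. Leaving out PN1a 3 or any 1 PN1b sample other than PN1b 5 ended this call too.

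**Figure D5:**
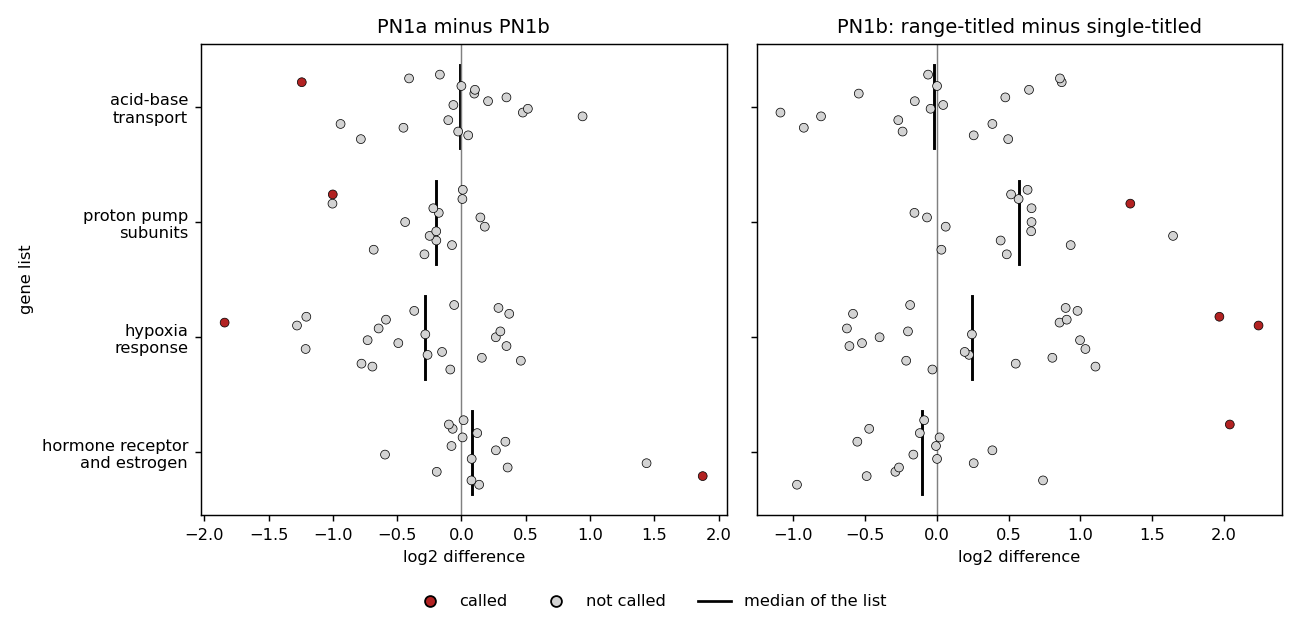
Log2 differences of single genes (points) in 4 gene lists, for PN1a minus PN1b (left) and for range-titled minus single-titled PN1b samples (right); red points passed the adjusted p and fold, and a black line marks each list's median. The proton pump median is -0.20 on the left and 0.57 on the right, and the hypoxia median -0.28 on the left and 0.25 on the right.

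Pearson's r to Car12 was taken over 11 samples after subtracting each line's mean. It was computed for 5622 probe sets with 1 symbol and a mean log2 intensity at or above the median of all, carbonic anhydrases left out. The genes with the highest r were taken as most like Car12. They were Dhps (r = 0.971), which makes the hypusine of a translation factor, Gpd1 (0.960), the cytosolic glycerol-3-phosphate dehydrogenase, Higd2a (0.957), a mitochondrial respiratory chain assembly factor, Pradc1 (0.952) and Ptpn18 (0.952), a tyrosine phosphatase. Car12 itself had the largest spread within lines among the members (pooled SD 0.96 on the log2 scale). The points share the split between range-titled and single-titled PN1b samples, and all 5 genes were higher in every range-titled than in both single-titled samples. Gpd1, for example, had 12.7 to 17.4 in PN1a, against 37.3 to 43.1 in range-titled and 13.5 and 16.4 in single-titled PN1b samples, and its limma adjusted p between range-titled and single-titled samples was 0.0109. Gpd1 in single-titled PN1b samples thus overlapped PN1a, which Car12 did not.

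Among the members, the deviations of Car12 from the line means correlated with those of Car8 (r = 0.59) and Car2 (r = 0.52) and, with the opposite sign, of Car3 (r = -0.67) over the 11 samples. Car8, Car2 and Car3, like Car12, also separated range-titled from single-titled PN1b samples, and these r values share that split. Car14 and Car2 had r = -0.71, which leans on PN1a 1, the sample with the lowest Car2 (8.69) and the highest Car14 (4.99). The 2 Car4 probe sets, which are meant to read the same gene, had r = -0.51. The protein-coding genes Car1, Car3 and Car2 are neighbours on chromosome 3 in GRCm38.p6, beside Car13, with Car14 on the same chromosome. Their log2 differences between the lines were 0.17 for Car1, 0.42 for Car3, -1.79 for Car2 and -0.29 for Car14, so the 3 neighbours did not share a sign.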

How the data were processed

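Whole glands bearing PN1a (5 samples) or PN1b lesions (6 samples) were profiled on Affymetrix MG_U74Av2 arrays. Array signals were summarised by the authors with dChip (PM-MM model and quantile normalization), whose version is not given in the sources that were used, and they deposited a table of linear intensities. The deposited intensities, from 1 to 1938 with 0.817% at the lowest value, lie on a log2 grid of 0.01. No scanner file was used, so background and normalization were not repeated, and no gene's level was set against that of another gene.

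From the 12488 probe sets 66 array controls were left out. Of the rest 10833 carried 1 symbol, 396 several and 1193 none, and genes were named only from the first kind. Log2 intensities were fitted in R 4.3.3 with limma 3.58.1 (lmFit, eBayes, two-sided, no covariate), with Benjamini-Hochberg adjustment over 12422 probe sets. Each gene was represented by its brightest probe set. The steps were tested on simulated data. Figures used Python 3.11.15 and matplotlib 3.10.9.

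Members and lists were chosen with earlier results of these data known. The rule for named genes takes the members, of each list up to 4 called genes with the smallest adjusted p between the lines (or, if none, the smallest p), and the 5 genes most like Car12. The text names part of these. Krt18, Krt19, Adipoq, Esr1, Pgr, Hif1a, Acta2 and Clcn3, and genes named from contrasts within a line (Atp6v1e1, Atp6v1b2, Atp6v1c1, Atp6v0e, Slc2a1, Pfkl, Wnt4, Slc26a2, Aqp1, Atp6ap2), lie outside it and were chosen after their values were seen. No 2 samples shared over 1.24% of their values, and each counted as a replicate. Alternatives were other normalizations, filters, pseudocounts, fold thresholds and tests, the title ending as a block, and samples left out.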

Additional observations from a re-analysis of the deposited data

Results flagged for a closer look

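Of 18 groups of member values examined for a sample far from the others, 1 was flagged, and chance flags about 1 in 20. Car2 in PN1a 1 had an intensity of 8.69, while the other 4 PN1a samples had 37.5 to 60.5; on the log2 scale the gap was 0.754 of the range of the group. PN1a 1 also had the lowest Krt18 intensity, 73.0, and the lowest sum over the luminal genes, 297. Without PN1a 1 the Car2 difference between the lines was -1.31.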

How the results depend on the processing

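In PN1a against PN1b, the comparison on which the members were chosen, 1 member probe set passed the call rule (Car12), and nothing is read from this count. The count was 2 (Car12 and Car2) with dim probe sets left out, which tested only these 2 members, with log2(value + 16), with a trend and robust variances, and, added after the data were seen, with the luminal covariate and log2(value + 1). It was 3 (also Car8) without PN1b 5 and 6 (also added), and 0 with the title ending as a fixed block or within the shared ending, where fewer samples were used. Leaving out single samples gave 1 to 3, with 3 without PN1b 5 and 2 without PN1a 1, 4 or 5 or PN1b 6. The Car12 difference of -3.39 was -1.85 with the fixed block and within the shared ending, and -3.78 to -3.19 with single samples left out. The Car2 difference ran from -2.12 to -1.12. The cause was not tested.

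For acid and bicarbonate handling the count of 2 was 1 (Atp6v1h) with log2(value + 16). With dim probe sets left out, 21 of the genes were tested and 2 were called (Atp6v1h and Clcn3), so Slc4a4 was in neither count. The count was 0 with the methods' t-test, the title ending as a fixed or random block, the shared ending, or without PN1a 1 and 2. It was 0 to 3 with single samples left out (0 without PN1a 1, 2 or 3 or PN1b 1, 2, 3 or 4, and 1 without PN1a 4). Between range-titled and single-titled PN1b samples the member count of 1 was 0 to 1 with single samples left out, being 0 without PN1b 5. The Car12 difference then ran from 1.91 to 2.72 and its adjusted p from 0.00995 to 0.100; a lone single-titled sample was assumed to vary like the other groups. Within PN1a the member count of 0 was 1 (Car2) with dim probe sets left out and 0 to 1 with single samples left out, being 1 without PN1a 2. Of the members, Car3, which was not called, changed sign, at 0.42 over all samples and -0.48 with the fixed block and within the shared ending. No paired analysis was possible because the labels give no replicate numbers shared by the lines. Dim members (Car1, Car3, Car4, Car6, Car8 and Car14) lay near the low end of the table, which limits what their differences can show.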
